A study of Mus musculus with 6 samples.

Results

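Tight junctions seal the space between neighbouring epithelial cells. Claudins, membrane proteins that cross the membrane several times, form their strands and set which ions pass, and occludin and junctional adhesion molecules lie beside them. The scaffold ZO-1, encoded by Tjp1, ties these proteins to actin inside the cell. In the alveolus this barrier keeps the air space dry, and lung carcinomas often change their claudins. The genes described here are the claudin genes Cldn1, Cldn2, Cldn3, Cldn4, Cldn7 and Cldn18, the occludin gene Ocln, the scaffold gene Tjp1 and F11r, which encodes the junctional adhesion molecule JAM-A. They were taken by gene name from the non-control spots of the arrays, and are 9 of 36870 gene names. All 9 passed the filter on dim probes, as did 20475 names in all, and the 9 have 12 probes between them.

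RNA came from lung tumors of C57BL/6J mice with the genotype Ror1f/f; CAG-CreER; SPC-hEGFRdel746-750. All samples thus carried floxed Ror1, a tamoxifen-inducible Cre under the broadly active CAG promoter, and mutant human EGFR under the surfactant protein C promoter of alveolar type 2 cells. One group had tamoxifen and the other corn oil, given between the ages of 16 and 20 weeks (4 weeks in all), with tumors taken at the end. There were 3 tamoxifen and 3 oil samples, named here by their labels. Samples with the same number, 1 tamoxifen and 1 oil, shared 2 Agilent arrays with the dyes exchanged, and such a set is called a couple. All 6 arrays lay on 1 slide in 1 scan. Whether the numbered samples are separate animals is not stated in the labels, so p-values measure only the spread between these samples.

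The share of probes well above background ran from 51.8% to 58.8% over arrays and channels. Ror1 had a log2 ratio of tamoxifen over oil of 0.40 ± 0.21 (SD, n = 3 couples, limma adjusted p = 0.69), against the direction expected of a deleted gene, but which exon is floxed is not in the labels, so this probe does not check them. Couple 1 joined samples that differed in sex-linked signal: Eif2s3y, a Y-linked gene, had a normalized log2 signal of 9.72, 6.20 and 10.70 in tamoxifen samples 1, 2 and 3, against 6.01, 6.06 and 10.07 in oil samples 1, 2 and 3. The part of this in the couple 1 values below was not tested. All 12 listed alveolar type 2 markers passed the filter on dim probes, as did 11 of 13 pan-epithelial markers. So did all listed endothelial (9), leukocyte (11) and fibroblast (8) markers, so passing the filter does not give the share of epithelium.

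Probe sequences are shown for Cldn2, whose ratios differed most between couples, and for Cldn4, whose probe was the only one standing for a member that was not well above background in every reading. Both are 60 bases long, run 5′ to 3′ in the sense of the transcript and lie in coding sequence. They carry no capitals, as the whole length binds the labelled RNA. The Cldn2 probe, the dimmer of that gene's probes, is on mm9 at chrX:136343432-136343491 on the + strand and the Cldn4 probe at chr5:135422135-135422194 on the - strand.
Cldn2 probe: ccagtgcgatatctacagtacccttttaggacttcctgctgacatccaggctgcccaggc
Cldn4 probe: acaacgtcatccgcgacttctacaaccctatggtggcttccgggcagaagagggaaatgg

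The 250 bases before the start of transcription are shown for 3 members whose ratios went apart between couples, Cldn2, Cldn18 and Cldn7, from RefSeq on GRCm38.p6. RefSeq promoters matched all 9 members and gave 12 windows, as Cldn7, Cldn18 and Ocln have 2 starts each. Capitals mark matches on either strand to any of 6 motifs searched: CACCTG, an E-box bound by Snail and Zeb repressors, AACNGGTT of Grainyhead-like factors, ACGTG, the hypoxia response core, CTCAAG, a core bound by NKX2-1, TGANTCA of AP-1, and TATAAA, the TATA box. No match overlapped another in these windows. The windows are at chrX:139800558-139800807 on the + strand for Cldn2, at chr9:99717268-99717517 and chr9:99710064-99710313 on the - strand for the first and second start of Cldn18, and at chr11:69965171-69965420 on the + strand for the second start of Cldn7.
Cldn2: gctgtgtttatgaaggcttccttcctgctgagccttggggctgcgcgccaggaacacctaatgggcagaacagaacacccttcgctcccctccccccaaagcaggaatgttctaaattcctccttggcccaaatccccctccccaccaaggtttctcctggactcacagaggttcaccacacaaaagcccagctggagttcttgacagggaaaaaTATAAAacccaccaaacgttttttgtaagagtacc
Cldn18 first start: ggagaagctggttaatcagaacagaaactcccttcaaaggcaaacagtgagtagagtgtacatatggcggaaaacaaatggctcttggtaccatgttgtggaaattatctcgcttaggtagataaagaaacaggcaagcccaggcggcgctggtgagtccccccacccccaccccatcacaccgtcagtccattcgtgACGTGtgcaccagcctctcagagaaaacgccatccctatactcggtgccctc
Cldn18 second start: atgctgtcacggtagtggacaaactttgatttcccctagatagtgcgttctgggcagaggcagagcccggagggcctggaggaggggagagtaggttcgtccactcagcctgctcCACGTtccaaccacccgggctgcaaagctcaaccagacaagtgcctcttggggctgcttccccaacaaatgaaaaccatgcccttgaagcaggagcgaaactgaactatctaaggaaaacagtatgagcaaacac
Cldn7 second start: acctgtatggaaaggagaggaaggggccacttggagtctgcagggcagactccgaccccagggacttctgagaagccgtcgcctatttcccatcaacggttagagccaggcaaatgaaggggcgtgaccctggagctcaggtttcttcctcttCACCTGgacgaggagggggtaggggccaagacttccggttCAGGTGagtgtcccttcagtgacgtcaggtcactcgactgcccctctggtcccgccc

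The Cldn2 window held a TATA box 35 bases before the start, and was the only 1 of the 12 member windows with that motif, which stood in 12.4% of 32851 windows of the same length in the table. Both Cldn18 windows held the hypoxia response core, 52 and 135 bases before the start, as did 16.6% of all windows and 3 of the 12 (the other was that of Cldn3). The E-box was in 4 of the 12 (Cldn4, F11r, the second Ocln start and the second Cldn7 start), against 17.2% of all, and stood 97 and 57 bases before the second start of Cldn7. The NKX2-1 core was in 2 (F11r and the first Ocln start), against 13.3% of all, and the AP-1 motif in 2 (Cldn4 and F11r), against 6.75%. The Grainyhead-like motif was in 0 of the 12, against 1.79% of all, which says only that these letters are not in these windows.

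None of the 9 genes differed between tamoxifen and oil tumors by the test. By limma, 0 of 9 passed at an adjusted p under 0.05, with adjusted p from 0.72 to 0.99, as did 0% of all 20475 genes. At an unadjusted p under 0.05 there were also 0 of the 9, against 7.01% of all genes. For all 9 the tamoxifen and oil samples overlapped. Among all genes, 7.24% lay without overlap on the lower side and 5.25% on the higher side. The range within tamoxifen samples and that within oil samples each exceeded the difference of the group means for all 9, leaving the couples aside. No share over all genes is set beside this, so it is not read as a trait of the 9. No member had 1 sign in all 3 couples, whereas 16.4% of all genes were lower and 13.8% higher in each couple. Likewise 0 of the 9 had 1 sign on all 6 arrays, against 7.21% of all genes on the lower and 6.04% on the higher side. The median log2 ratio of the 9 was -0.01, beside 0.00 (-0.0039) over all genes, and 5 of 9 were below 0, against 51.2% of all genes. By couple, 7, 6 and 4 of the 9 were below 0 in couples 1, 2 and 3, against 51.5%, 50.2% and 51.1% of all genes. With the couple as a random replicate block limma called 0.274% of all genes, and with no replicate block 0.00488%, and in either case 0 of the 9.

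**Figure D1:**
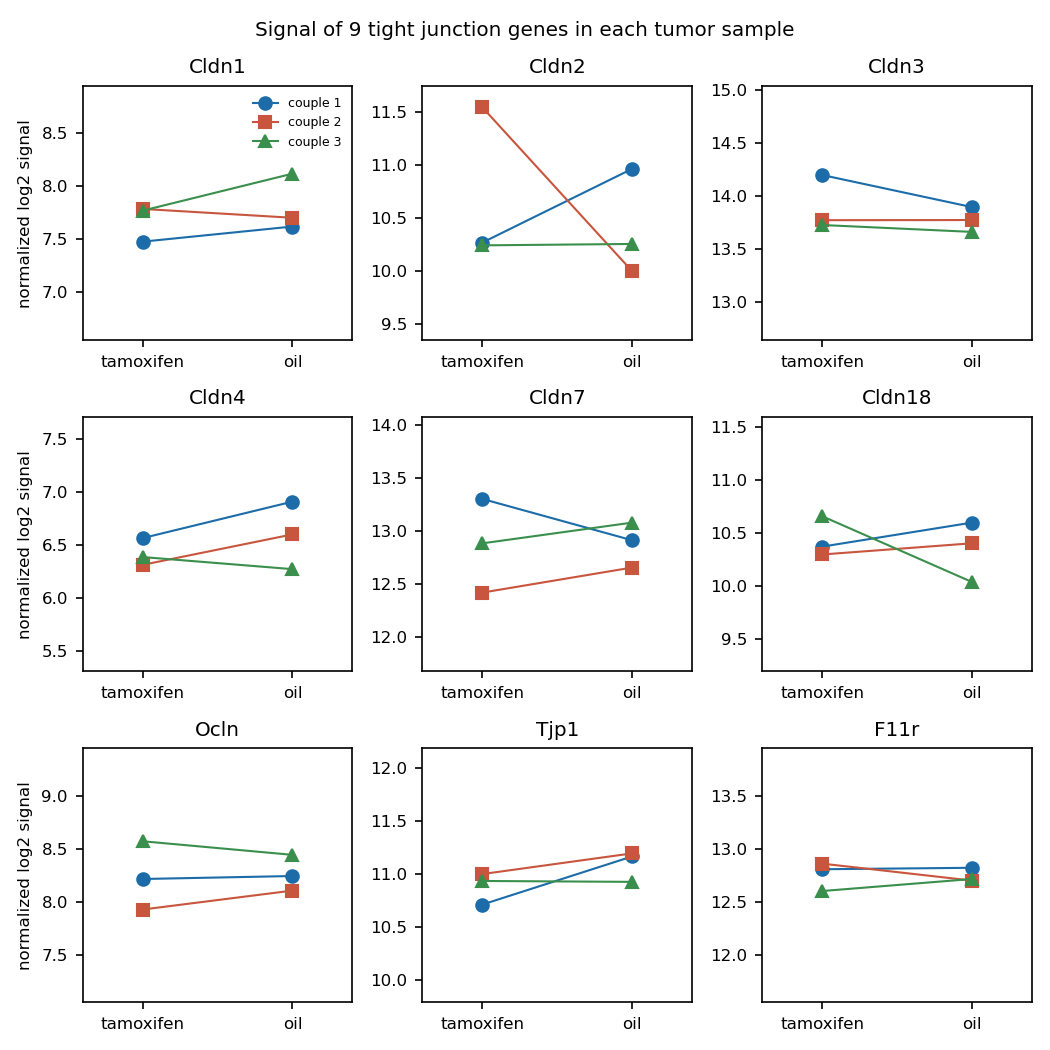
Normalized log2 signal (y axis) of each gene in the tamoxifen samples (left) and oil samples (right), 1 point per sample, with a line joining the samples of a couple. Each panel spans the same number of log2 units, and the lines of Cldn2 and Cldn18 cross, with tamoxifen sample 2 highest for Cldn2 at 11.54 and oil sample 3 lowest for Cldn18 at 10.04.

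Cldn2 encodes claudin-2, which makes strands permeable to cations and water and so loosens the barrier. Its brighter probe, on mm9 at chrX:136345244-136345303, had a normalized log2 signal of 10.26, 11.54 and 10.24 in tamoxifen samples 1, 2 and 3, against 10.96, 9.99 and 10.25 in oil samples 1, 2 and 3. Tamoxifen sample 2 was the highest of the 6 and oil sample 2 the lowest, while the samples of couple 1 lay the other way round and those of couple 3 were level. The log2 ratio of tamoxifen over oil was thus -0.70 in couple 1, 1.55 in couple 2 and -0.01 in couple 3, averaging 0.28 ± 1.15 (SD over n = 3 couples, limma adjusted p = 0.89). The 95% interval of the mean ran from -0.87 to 1.43. The couple 2 ratio exceeded that of 99.8% of all genes tested, and the SD over couples was larger than that of 99.3% of them.

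Both dye orientations gave the same picture: couple 2 was at 1.48 with tamoxifen in Cy5 and 1.61 with tamoxifen in Cy3, and couple 1 at -0.71 and -0.68. The dimmer Cldn2 probe, whose sequence is printed above, had log2 ratios of -0.34, 0.98 and -0.06 in couples 1, 2 and 3. It gave the same order of couples, with values nearer 0 in couples 1 and 2 but not in couple 3. An offset of 50, added to both channels, pulls the log2 ratio of a dim probe toward 0, and its part here was not tested. The sign of the mean rested on couple 2: without it the log2 ratio was -0.35 (limma adjusted p = 0.82).

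**Figure D2:**
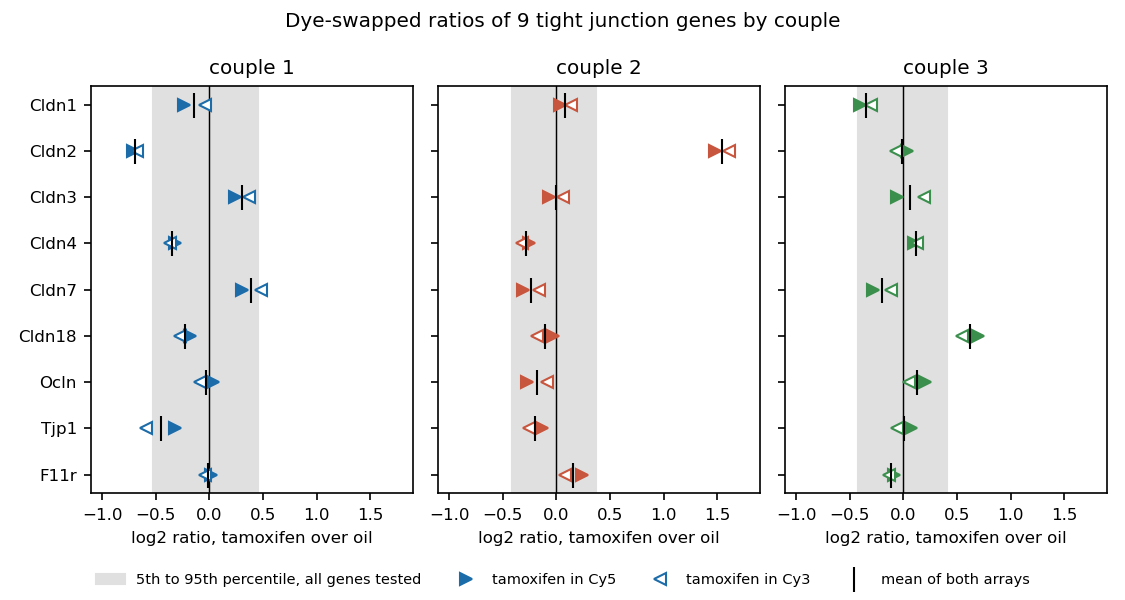
Log2 ratio of tamoxifen over oil (x axis) for each gene on both arrays of each couple, with tamoxifen in Cy5 (filled) or in Cy3 (open), their mean (bar) and the 5th to 95th percentile of all genes tested (grey). Cldn2 stands outside the grey range in couples 1 and 2, at -0.70 and 1.55, and Cldn18 in couple 3, at 0.62.

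Of the genes that are no members, Mirt1, Ces2c and Ces2b had turned log2 ratios closest to those of Cldn2 over the 6 arrays, with root mean square differences of 0.19, 0.19 and 0.24. Ces2c and Ces2b encode carboxylesterases, and Mirt1 is a long noncoding RNA. Mirt1 had log2 ratios of -0.57, 1.55 and 0.10 in couples 1, 2 and 3, and Ces2c of -0.80, 1.31 and 0.02. Ces2b was at -0.59, 1.17 and 0.04. None passed the test, with limma adjusted p from 0.85 to 0.93, which follows from picking genes with ratios close to those of Cldn2. Likeness over 3 couples says nothing of shared control.

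**Figure D3:**
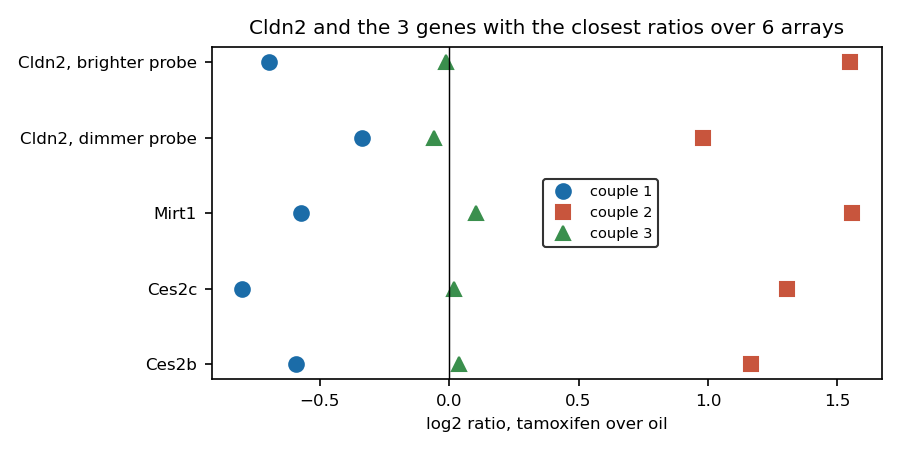
Log2 ratio of tamoxifen over oil (x axis) in each couple for both Cldn2 probes and for the 3 genes with the closest ratios over the 6 arrays. In every line couple 1 lies lowest and couple 2 highest, with couple 2 from 0.98 for the dimmer Cldn2 probe to 1.55 for Mirt1 and the brighter Cldn2 probe.

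Cldn18 encodes claudin-18, whose lung form is made by alveolar epithelium and whose other form is known from the stomach. The 2 forms start from different promoters, and the probe, on mm9 at chr9:99592661-99592720, lists all 4 curated RefSeq transcripts of the gene, so it does not tell them apart. Its normalized log2 signal was 10.37, 10.30 and 10.66 in tamoxifen samples 1, 2 and 3, against 10.60, 10.40 and 10.04 in oil samples 1, 2 and 3. Oil sample 3 was the lowest of the 6 and tamoxifen sample 3 the highest, and the other samples lay between them.

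For Cldn18, couples 1, 2 and 3 had log2 ratios of -0.23, -0.11 and 0.62, averaging 0.10 ± 0.46 (SD over n = 3 couples, limma adjusted p = 0.92, 95% interval from -0.40 to 0.59). The couple 3 ratio exceeded that of 97.9% of all genes tested. Without couple 3 the mean was -0.17 (limma adjusted p = 0.73). The listed genes of alveolar type 1 cells, which are thin and exchange gas, had mean log2 ratios of -0.35, -0.11 and 0.45 in couples 1, 2 and 3, with 0 of 11 past the test. The log2 of their signal, summed on the linear scale, ranged from 16.74 to 17.15 in tamoxifen samples and from 16.94 to 17.20 in oil samples. The part of these genes in the Cldn18 values was not tested. In bulk tumor RNA, fewer cells of a type and less RNA per cell cannot be told apart.

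Cldn3 and Cldn7 encode barrier-forming claudins of lung epithelium, and claudin-7 binds the adhesion molecule EpCAM. The Cldn3 probe, on mm9 at chr5:135463284-135463342, had a normalized log2 signal of 14.20, 13.77 and 13.72 in tamoxifen samples 1, 2 and 3, against 13.89, 13.77 and 13.66 in oil samples 1, 2 and 3. The groups overlapped, with tamoxifen sample 1 the highest. Couples 1, 2 and 3 had log2 ratios of 0.30, 0.00 (-0.0014) and 0.06, averaging 0.12 ± 0.16 (SD over n = 3 couples, limma adjusted p = 0.79). Its 95% interval ran from -0.13 to 0.38.

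The Cldn7 probe, on mm9 at chr11:69781255-69781314, had a normalized log2 signal of 13.30, 12.42 and 12.89 in tamoxifen samples 1, 2 and 3, against 12.91, 12.66 and 13.08 in oil samples 1, 2 and 3. Tamoxifen samples 1 and 2 were the highest and the lowest of the 6, so the tamoxifen group enclosed the oil group. By couple, the Cldn7 log2 ratio was 0.39, -0.24 and -0.20 and averaged -0.01 ± 0.35 (SD over n = 3 couples, limma adjusted p = 0.99). This mean lay above 0 under 7 alternatives that are not all independent, such as 0.05 with median centring in place of loess. Couple 1, in which Cldn7 and Cldn3 were higher in the tamoxifen sample, had a mean log2 ratio of -0.41 over pan-epithelial markers, with 2 of 11 above 0. Of 9 protease and partner genes given below, 5 were above 0 in couple 1, with Epcam at 0.46. The part of epithelial content in the Cldn3 and Cldn7 values was not tested.

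Another Cldn7 probe, on mm9 at chr11:69778772-69778831, gave 0 readings well above background among 6 tamoxifen and 6 oil ones, and so no fold. It lists 0 of the gene's 2 curated RefSeq transcripts. Its sequence stands in the window printed above, beginning 151 bases before the second Cldn7 start.

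Cldn1 and Cldn4 encode sealing claudins, of which claudin-4 is known to increase in injured alveolar epithelium. The Cldn1 probe, on mm9 at chr16:26356740-26356799, had a normalized log2 signal of 7.48, 7.79 and 7.77 in tamoxifen samples 1, 2 and 3, against 7.62, 7.70 and 8.12 in oil samples 1, 2 and 3. Oil sample 3 was the highest and the other 5 lay close together. For Cldn1 the log2 ratios by couple were -0.14, 0.08 and -0.35 (mean -0.14 ± 0.22, SD over n = 3 couples, limma adjusted p = 0.79, 95% interval from -0.43 to 0.15).

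Cldn4 was near the detection limit, since only 3 of 6 tamoxifen and 4 of 6 oil readings were well above background. This gene passed the filter on dim probes through its oil readings alone, and oil was the group with the higher mean. Its normalized log2 signal was 6.56, 6.31 and 6.38 in tamoxifen samples 1, 2 and 3, against 6.91, 6.60 and 6.27 in oil samples 1, 2 and 3. Oil sample 1 was the highest and oil sample 3 the lowest. Its log2 ratios by couple were -0.34, -0.29 and 0.11 (mean -0.17 ± 0.25, SD over n = 3 couples, limma adjusted p = 0.77, 95% interval from -0.49 to 0.14), and with signals this low it is only rough.

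Ocln encodes occludin, a strand protein of the MARVEL family. Its probe, on mm9 at chr13:101268114-101268173, lists 1 of 5 curated RefSeq transcripts. The normalized log2 signal was 8.21, 7.93 and 8.57 in tamoxifen samples 1, 2 and 3, against 8.24, 8.10 and 8.44 in oil samples 1, 2 and 3. In both groups sample 3 was highest and sample 2 lowest. Samples of a couple shared their arrays, so couple and array cannot be told apart in this order. The Ocln log2 ratio by couple was -0.03, -0.18 and 0.13 (mean -0.03 ± 0.15, SD over n = 3 couples, limma adjusted p = 0.96, 95% interval from -0.28 to 0.22), and its mean was above 0, at 0.050, without couple 2.

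F11r encodes JAM-A, an adhesion molecule that is also known on platelets and leukocytes. Its probe, on mm9 at chr1:173393848-173393907, had a normalized log2 signal of 12.81, 12.86 and 12.60 in tamoxifen samples 1, 2 and 3, against 12.82, 12.70 and 12.71 in oil samples 1, 2 and 3. The groups overlapped. By couple the log2 ratio was -0.01, 0.16 and -0.11, averaging 0.01 ± 0.14 (SD over n = 3 couples, limma adjusted p = 0.99), and the mean was -0.064 without couple 2. F11r had the smallest SD over couples of the 9 genes, and its 95% interval ran from -0.23 to 0.25.

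Tjp1, which encodes the scaffold ZO-1, is active in endothelium as well as epithelium. Its brighter probe, on mm9 at chr7:72441126-72441185, had a normalized log2 signal of 10.71, 11.0001 and 10.94 in tamoxifen samples 1, 2 and 3, against 11.17, 11.20 and 10.93 in oil samples 1, 2 and 3. Oil samples 1 and 2 were the highest, and oil sample 3 lay among the tamoxifen samples. Couples 1, 2 and 3 had Tjp1 log2 ratios of -0.45, -0.20 and 0.01, averaging -0.21 ± 0.23 (SD over n = 3 couples, limma adjusted p = 0.72), 1.16-fold lower in tamoxifen samples without passing the test. The 95% interval ran from -0.52 to 0.09.

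The dimmer Tjp1 probe, on mm9 at chr7:72441703-72441762, had -0.35, -0.08 and -0.04 by couple, averaging -0.16 ± 0.17 (SD over n = 3 couples). By likeness over the 6 arrays, Usp15, a deubiquitinase gene, Sod2, which encodes mitochondrial superoxide dismutase, and Sppl2a, an intramembrane protease gene, were nearest to Tjp1, with root mean square differences of 0.03, 0.05 and 0.05. Nearest to Cldn4 were the transcript AK041816, Sash1 and Sap25, with differences of 0.04, 0.05 and 0.06. All 6 of these genes had a mean log2 ratio below 0, from -0.20 (Sash1) and -0.21 (Usp15) to -0.14 (Sap25), and none passed the test. Both follow from picking genes with ratios close to those of Tjp1 and Cldn4.

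Few members differed by 1.5-fold or more within a couple. In couple 1, Cldn2 was lower by at least 1.5-fold, as were 3.89% of all genes. In couple 2, Cldn2 was higher by that much, as were 1.98% of all genes, and in couple 3 Cldn18 was higher, as were 2.45%. No other member reached 1.5-fold in any couple.

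Cell type markers are set beside these values because the tumors hold several cell types. Mean log2 ratios of pan-epithelial markers were -0.41, -0.26 and 0.24 in couples 1, 2 and 3 (0 of 11 past the test), with Cdh1, the E-cadherin gene, at a mean of -0.34 ± 0.20 and the keratin gene Krt7 at -0.20 ± 0.67 (SD, n = 3 couples). The log2 of their summed signal was 16.84 to 17.10 in tamoxifen samples, against 17.05 to 17.57 in oil samples. Alveolar type 2 markers were at -0.27, -0.27 and -0.45 (0 of 12 past the test), with the surfactant genes Sftpa1 at -0.30 ± 0.09 and Sftpb at -0.62 ± 0.09. The log2 of their summed signal was 19.44 to 19.55 in tamoxifen samples, against 19.84 to 19.89 in oil samples, without overlap. Such a sum is taken before the log, so the brightest genes, such as Sftpc, weigh most in it. At an unadjusted p under 0.05, 6 of the 12 were lower and 0 higher, beside 4.01% and 3% of all genes. The part of the type 2 signal in the values of the 9 genes was not tested.

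Among the alveolar type 1 markers given with Cldn18, Ager was at -0.07 ± 0.41 and Hopx at 0.07 ± 0.30. Club cell markers were at -0.49, -0.51 and 0.39 in couples 1, 2 and 3 (0 of 8 past the test), with Scgb1a1, the secretoglobin gene of club cells, at -0.20 ± 1.42 and Scgb3a1 at -0.14 ± 0.99. Ciliated cell markers, of which 5 of 7 were tested, were at -0.08, -0.30 and 0.19 (0 of 5), with medians of -0.21, -0.07 and 0.02. Foxj1 was at -0.02 ± 0.30 and Tppp3 at 0.09 ± 1.23. The Foxj1 signal was as low as that of Cldn4 in several samples: 6.22, 7.09 and 6.59 in tamoxifen samples 1, 2 and 3, against 6.47, 7.22 and 6.27 in oil samples 1, 2 and 3. In couple 3, where Cldn18 was above 0, so were 10 of 11 type 1, 6 of 8 club, 6 of 11 pan-epithelial and 3 of 5 ciliated markers. So too were 8 of 9 endothelial and 5 of 11 leukocyte markers, but only 1 of 12 type 2 and 1 of 8 fibroblast markers. Of all genes, 51.1% were below 0 in couple 3. In couple 2, where Cldn18 was below 0, 6 of 11 type 1 markers were above 0, with a median of 0.02.

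Endothelial markers were at -0.12, 0.09 and 0.16 in couples 1, 2 and 3 (0 of 9 past the test), with Pecam1 at 0.01 ± 0.20 and Cdh5 at 0.10 ± 0.25. Leukocyte markers were at -0.39, 0.27 and -0.28 (0 of 11), with Ptprc at -0.15 ± 0.21 and Cd68 at -0.24 ± 0.49. Fibroblast markers were at -0.11, 0.08 and -0.25 (0 of 8), with the collagen genes Col1a1 at -0.22 ± 0.14 and Col1a2 at -0.32 ± 0.24. At an unadjusted p under 0.05, the other marker lists held Ap1m2 and Pdgfrb on the higher side and Cdh1, Krt8, Aqp5, Cd14 and Col1a2 on the lower side. Single genes weighed on the list means: the median log2 ratio in couple 2 was 0.06 for leukocyte markers and 0.04 for fibroblast markers, where Marco, a macrophage receptor gene, was at 2.07 and the proteoglycan gene Dcn at 1.71 (both named after their values were seen). In couple 3 the leukocyte median was -0.02, with Marco at -3.01. The couple 3 medians of pan-epithelial and ciliated markers were 0.04 and 0.02, against means of 0.24 and 0.19. The highest ratios there were those of Cd24a, named after its values were seen, and Tppp3. The club cell median in couple 2 was -0.22, with Cbr2, also named after its values were seen, at -2.33. The log2 of the summed signal of leukocyte markers was 14.76 to 15.66 in tamoxifen samples, against 15.22 to 15.51 in oil samples. Their part in the Cldn2 values was not tested.

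**Figure D4:**
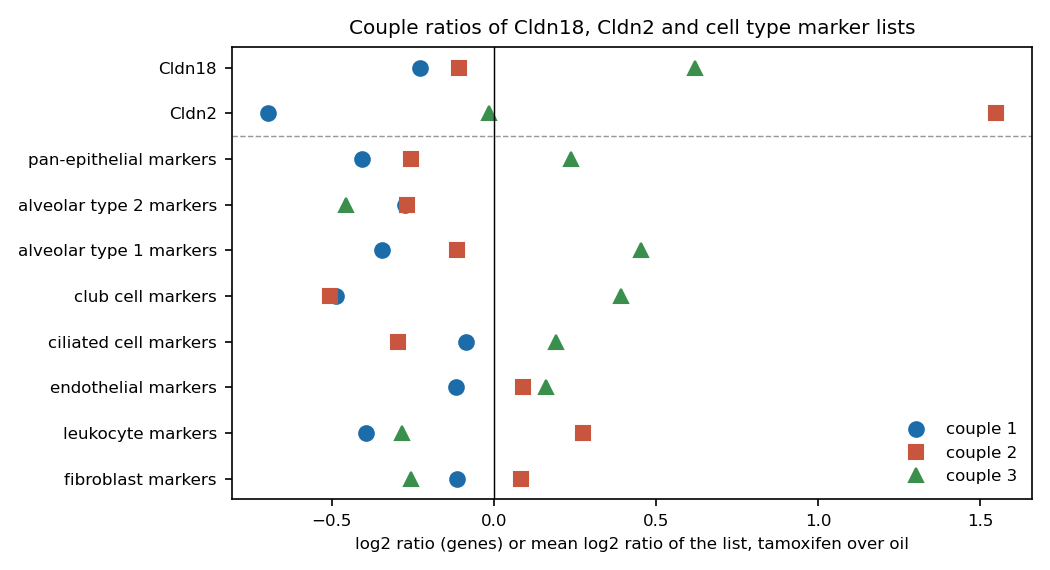
Log2 ratio of tamoxifen over oil (x axis) in each couple for Cldn18 and Cldn2, above the dashed line, and the mean log2 ratio of each cell type marker list, below it. Alveolar type 2 markers lie below 0 in all 3 couples, from -0.45 to -0.27. Cldn18 lies above 0 in couple 3 alone, as do the means of type 1, pan-epithelial, club and ciliated markers. The couple 3 medians of pan-epithelial and ciliated markers are smaller than these means, at 0.04 and 0.02.

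Other genes of the junction were read from lists. Of 25 other claudin and claudin-domain genes, 23 were on the array and 10 passed the filter on dim probes. None of the 10 passed the test, and 5 of 10 were below 0 with a median log2 ratio of 0.00 (0.0036). None had 1 sign in all 3 couples. Of 6 genes for MARVEL and tricellular junction proteins 0 passed, with a median of -0.01. Marveld1 was at -0.30 ± 0.34 and Ildr1, an angulin of tricellular contacts, at 0.19 ± 0.05 (SD, n = 3 couples). Of 6 genes for immunoglobulin-type adhesion molecules 0 passed, with a median of 0.01. Jam2, a relative of F11r, was at 0.25 ± 0.17 and Igsf5 at -0.12 ± 0.13.

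Scaffold and polarity genes numbered 28, all tested, with 0 past the test, 12 below 0 and a median log2 ratio of 0.01. At an unadjusted p under 0.05, 2 of the 28 were higher and 2 lower, beside 3% and 4.01% of all genes. Amotl2, an angiomotin-like protein, was at 0.35 ± 0.21 and the polarity subunit gene Pard6g at 0.33 ± 0.15 (SD, n = 3 couples). Prkci, the atypical protein kinase C of the same complex, was at -0.29 ± 0.16 and its partner Pard3 at -0.26 ± 0.31. Limma adjusted p values were 0.69 for the first 3 and 0.72 for Pard3. The other gene lower at an unadjusted p under 0.05 was Arhgef2, named after its values were seen, at -0.20 ± 0.05.

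Proteases, inhibitors and partners that act on claudins numbered 9, with 0 past the test, 7 below 0 and a median log2 ratio of -0.10. At an unadjusted p under 0.05, 2 of the 9 (Epcam and St14) were higher and 1 (Spint2) lower, beside 3% and 4.01% of all genes. Epcam, which encodes the partner of claudin-7, was at 0.28 ± 0.20 and St14, which encodes matriptase, the protease that cuts EpCAM, at 0.25 ± 0.10 (SD, n = 3 couples). The gene of another membrane protease, Prss8, was at -0.21 ± 0.14. Spint2, which encodes an inhibitor of such proteases, was at -0.26, -0.29 and -0.31 in couples 1, 2 and 3. Its normalized log2 signal was 12.31, 12.16 and 12.03 in tamoxifen samples 1, 2 and 3, against 12.57, 12.45 and 12.34 in oil samples 1, 2 and 3, with no overlap (limma adjusted p = 0.69). The groups did not overlap for St14, on the higher side, and Prss8, on the lower side, either. Of all genes, 5.25% lay without overlap on the higher side and 7.24% on the lower.

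Transcription and splicing regulators of junction genes numbered 19, of which 17 were tested, with 0 past the test, 8 below 0 and a median log2 ratio of 0.05. Snai1, which encodes the repressor Snail, was at 0.14 ± 0.14, Elf3, an epithelial ETS factor gene, at 0.14 ± 0.05 and Zeb2, a repressor gene, at -0.10 ± 0.09 (SD, n = 3 couples).

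**Figure D5:**
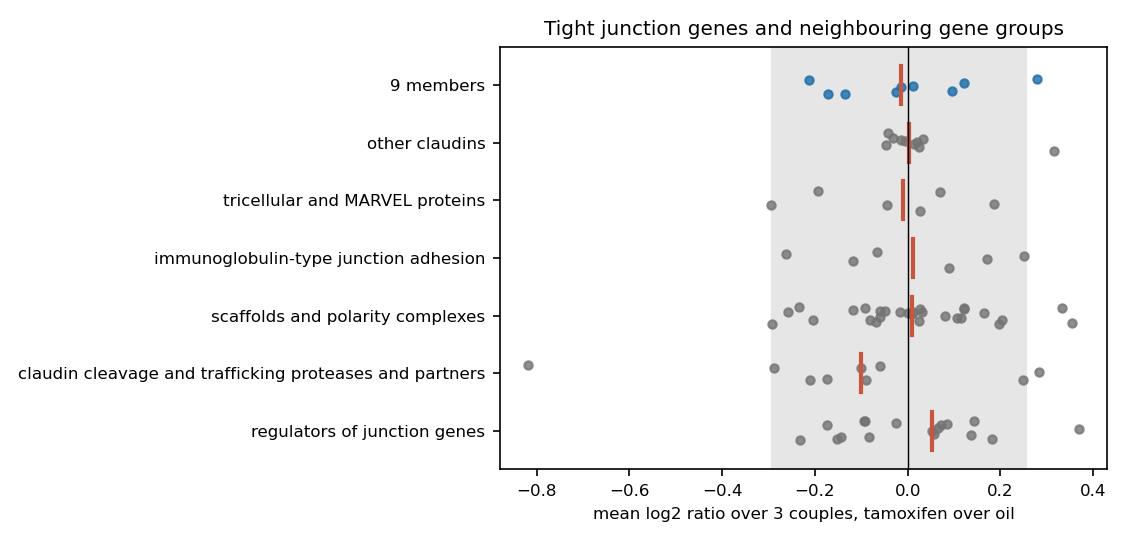
Mean log2 ratio of tamoxifen over oil over 3 couples (x axis), 1 point per tested gene, for the 9 genes (top) and each junction list, with the median of each as a vertical bar and the 5th to 95th percentile of all genes tested in grey. Medians run from -0.10 to 0.05, and the 9 genes lie between -0.21 for Tjp1 and 0.28 for Cldn2.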

How the data were processed

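The authors deposited scanner files of unnormalized intensity, a mean for the spot and a median for the background around it in each channel, per the file headers. Scans were read with Agilent Feature Extraction 12.0.3.1, which the submitters' processing notes name. Its log10 ratio of Cy5 over Cy3, made after background subtraction and dye normalization, is in the same deposited files, per the file headers, with flags of 0 or 1. The deposited series table gives log2 ratios, Cy5 over Cy3. Its slope against the scanner log10 ratio was 3.32 or 3.33 on each array over 56305 probes with 1 spot, which settles scale and direction, and the median log2 ratio of its columns was, by couple, 0.14, -0.14 and -0.06 where tamoxifen was in Cy5 and 0.13, -0.15 and -0.01 where oil was.

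Intensities were background corrected by normexp with an offset of 50 and loess normalized within each array in limma 3.58.1 under R 4.3.3, with the 3671 control spots at weight 0 and spots with an outlier flag left out. The brightest probe on average stood for its gene name, and testing it required 2 or more couples with both arrays well above background for the same treatment, which left 20475 of 36870 gene names after 2 were dropped for a missing spot. Ratios were turned to tamoxifen over oil on every array and the dye-swapped arrays of a couple were averaged, so that 3 couples were the replicates. Same-numbered samples are paired by design, since they shared arrays. The test was limma (lmFit and eBayes) against 0, two-sided, with Benjamini-Hochberg adjustment over all genes tested and 0.05 as the threshold, and it was tested on simulated data. Levels are per channel after loess and Aquantile normalization, averaged over the arrays of a sample. The number of arrays limits the precision, with a median standard error of 0.098 on the log2 scale.

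The members and the gene lists were chosen with earlier results of these data known. In each junction list up to 4 genes are named, those with the largest mean ratio in size among genes of 1 sign in all 3 couples. For each cell type list, the first 2 listed genes that were tested are named. Of the genes tested, 14334 matched the reference gene table of assembly GRCm38.p6 by accession.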

Additional observations from a re-analysis of the deposited data

How the results depend on the processing

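Of the 9 genes, 0 passed under any of 16 alternatives, of which the replicate block with a dye term was chosen after seeing the data. The alternatives are not independent. For each of the 9, the scanner software's log ratio and the deposited table gave near the same value. Cldn1, Cldn3, Cldn4 and Tjp1 kept the sign of their mean log2 ratio under each alternative that gave a value (Cldn4 gave none with all 12 readings required), but not its size: Cldn4 was at -0.51 with the scanner software's log ratio and with the deposited table, against -0.17, and leaving out 1 couple at a time gave -0.32 to -0.087 for Cldn4, -0.25 to -0.030 for Cldn1, 0.032 to 0.18 for Cldn3 and -0.32 to -0.094 for Tjp1. The Cldn7 value changed sign to 0.022 with the scanner software's log ratio and with the deposited table, 0.053 with median centring, 0.0011 with the mean of both probes and 0.067 with tamoxifen in Cy3 alone, which also put F11r at -0.034. Leaving out 1 couple at a time gave both signs for 5 genes: Cldn2 from -0.35 (without couple 2) to 0.77, Cldn7 from -0.22 to 0.097 (0.077 without couple 3), Cldn18 from -0.17 (without couple 3) to 0.26, Ocln from -0.10 to 0.050 (without couple 2) and F11r from -0.064 (without couple 2) to 0.073. The cause was not tested. The median of the 9 ranged from -0.06 to 0.05. Over all genes, limma called 56 with the couple as a random replicate block (0.274% of those tested), 9 when a dye term was added and 1 with no replicate block, but 0 otherwise, and 1436 had an unadjusted p under 0.05. In the gene lists the random block called 1 gene, the alveolar type 1 marker Aqp5, which is named after its values were seen. Slide and scan could not be fitted as blocks, as all arrays shared them. Because Cldn4 passed the filter on dim probes through oil, its higher group, alone, its steady sign is no support for a change. With 3 couples and a signal near background, small changes of Cldn4 were not detectable.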

Other observations

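Among the claudins outside the 9 genes, Cldn8 and Cldn5 were singled out after their values were seen. Cldn8 encodes a barrier claudin known from the kidney, and its log2 ratio was -0.27, -1.54 and 1.67 in couples 1, 2 and 3. Its normalized log2 signal was 9.12, 8.998 and 10.13 in tamoxifen samples 1, 2 and 3, against 9.39, 10.53 and 8.46 in oil samples 1, 2 and 3, so its couple 2 ratio lay opposite to that of Cldn2. Cldn5 encodes the claudin of endothelium, and its log2 ratio was -0.22, 0.35 and 0.81. Oil sample 3, at 9.70, was the lowest of its 6 signals, as it was for Cldn18. Neither passed the test (limma adjusted p = 0.99 for Cldn8 and 0.75 for Cldn5).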
